A study of Mus musculus with 8 samples.

Results

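The mitochondrial genome carries 7 of the subunits of respiratory complex I, and their mRNAs appear in the deposited tables as 6 records, mt-Nd1, mt-Nd2, mt-Nd3, mt-Nd4l_4, mt-Nd5 and mt-Nd6. The members were chosen by these names, which left 6 of the 50599 records in each library. The mt-Nd4l_4 record holds the mRNA shared by mt-Nd4l and mt-Nd4. RNA was sequenced from whole hearts of 12-week-old male C57BL/6N mice, 4 wildtype and 4 Lrpprc knockout, with 1 library each. The knockout mice carried loxP sites in both copies of Lrpprc together with a Cre transgene active in heart and skeletal muscle, and the controls carried the same loxP sites without Cre. The driver of Cre is not given in the sources used here, so the heart cells in which it was active are not stated either. Total expected counts ranged from 35218541 to 47743376 per library.

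Complex I takes electrons from NADH and passes them to ubiquinone while it pumps protons across the inner mitochondrial membrane, and the ND proteins form much of the membrane arm that moves protons. Mitochondrial DNA is transcribed as long precursors from both strands, which are cut at tRNAs into rRNAs and mRNAs, and most mRNAs then receive a tail of adenines. LRPPRC binds mitochondrial mRNAs together with SLIRP and is known to stabilize them and to promote their polyadenylation. The heart depends on oxidative phosphorylation for its energy and is rich in mitochondria.

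The reading frames lie on chromosome M (GRCm38). On the plus strand mt-Nd1 spans 2751 to 3707, mt-Nd2 spans 3914 to 4951, mt-Nd3 spans 9459 to 9806, mt-Nd4l spans 9877 to 10173, mt-Nd4 spans 10167 to 11544 and mt-Nd5 spans 11742 to 13565. mt-Nd6 lies on the minus strand from 13552 to 14070. Mitochondrial genes have no introns. The last 30 bases of each frame are shown 5′ to 3′ because the adenine tail follows this end of the mRNA, and capitals mark the annotated stop codon, or the single base left of it in mt-Nd4. The sequences are those of the GENCODE M21 transcripts.
mt-Nd1: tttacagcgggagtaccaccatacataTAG
mt-Nd2: ctacccctagccccccaactaattaccTAG
mt-Nd3: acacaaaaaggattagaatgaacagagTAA
mt-Nd4l: gtccaaaatctcaacctactacaatgcTAA
mt-Nd4: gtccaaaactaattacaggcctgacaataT
mt-Nd5: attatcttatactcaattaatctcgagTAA
mt-Nd6: tttattattatcgagattactcgagatTAA
In mitochondria a stop codon that lacks its last bases is completed by the tail. The sequences to which the study mapped its reads had 50 adenines added at the 3′ end. Once these are set aside, the deposited records of mt-Nd1 and mt-Nd2 were 2 bases shorter than the annotated frame, and those of mt-Nd3 and mt-Nd4l_4 were 1 base longer. The records of mt-Nd5 and mt-Nd6 were longer than their frames by 579 and 522 bases.

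Neighboring frames overlap at 2 places. The frames of mt-Nd4l and mt-Nd4 share 7 bases at 10167 to 10173 on the same strand, shown in capitals with their surroundings because both frames are counted in 1 record.
mt-Nd4l/mt-Nd4 junction: aacctactacaATGCTAAaaattattcttc
The frames of mt-Nd5 and mt-Nd6 share 14 bases at 13552 to 13565 on opposite strands, and the reads were counted by strand. They were counted on records longer than these frames, so the records may overlap further, which was not examined. mt-Nd6 also differed in base composition. Its annotated frame was 43.74% T and 5.97% C. The frames of the other records ranged from 27.36% to 32.76% T and from 22.13% to 27.75% C. GC content of the frames lay between 33.05% and 37.62% for all 6. The further bases in the records of mt-Nd5 and mt-Nd6 were not included.

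mt-Nd3 and mt-Nd4l_4 have near-identical nuclear copies, and expected counts divide reads that match several genes. Gm28438, an unprocessed pseudogene on chromosome 1 (24612775 to 24613119, minus strand), matched the first 345 of the 348 bases of mt-Nd3 with 1 mismatch, T3C, counted from 1 at the 5′ end of mt-Nd3 with the base of mt-Nd3 first. Its first 30 bases are shown beside those of mt-Nd3 with that base in capitals, because so little sequence separates the pair.
mt-Nd3 (aligned): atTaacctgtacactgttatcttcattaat
Gm28438: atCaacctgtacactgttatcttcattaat
Gm10222 (chromosome 1, 24612407 to 24612700) matched the first 294 bases of mt-Nd4l, and Gm28439 (chromosome 1, 24611535 to 24612410) matched the first 876 bases of mt-Nd4, both without a mismatch. Values of mt-Nd3 and mt-Nd4l_4 are therefore given as deposited and with the copies added. The copies of mt-Nd2 and mt-Nd5, Gm13339 and Gm4076, held at most 2.04 and 1 counts in any library and were not added.

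The targeted gene was low in the libraries labelled knockout. Lrpprc had a normalised count of 3424 to 3946 in the wildtype and 504.3 to 605.4 in the knockout, which is -2.67 on the log2 scale (SE 0.1, DESeq2, adjusted p = 3.77e-153). The log2 fold change of Slirp, which encodes the partner of LRPPRC, was 0.02 (DESeq2, adjusted p = 0.952).

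The first comparison asked how the complex I mRNAs changed when Lrpprc was lost. Of the 6 records, 5 fell in the knockout and 0 rose by DESeq2, at a threshold of 0.05 on the adjusted p. Of all 19959 records tested, 33.7% passed in either direction, with 15.5% lower and 18.2% higher. The falls were of different size. mt-Nd4l_4 and mt-Nd3 fell the furthest, mt-Nd1, mt-Nd2 and mt-Nd5 kept between 30.4% and 40.4% of their wildtype level, and mt-Nd6 did not pass the threshold. In the same 5 records each knockout library was lower than any wildtype library, which held for 16.4% of all records tested. The reverse, each knockout library above any wildtype library, held for 0 of the 6 and for 16.7% of all records tested. In whole hearts, fewer cells of a type and less RNA per cell cannot be told apart.

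mt-Nd1 encodes a subunit at the base of the membrane arm, beside the site where ubiquinone binds. Wildtype replicates 1 to 4 gave normalised counts of 350100, 333700, 370400 and 345000, and knockout replicates 1 to 4 gave 171600, 107500, 94630 and 128900. The groups did not overlap, and knockout replicate 1 was the highest of its group at 49.1% of the wildtype mean while knockout replicate 3 was the lowest at 27.1%. The knockout stood at -1.48 against the wildtype on the log2 scale (SE 0.173, DESeq2, adjusted p = 5.19e-16). The coefficient of variation was 4.39% in the wildtype and 26.8% in the knockout.

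mt-Nd2 encodes a proton-pumping subunit of the membrane arm. Its normalised counts were 223800, 222600, 239500 and 238700 in the wildtype and 97270, 83140, 103800 and 89310 in the knockout. Here knockout replicate 3, the lowest for mt-Nd1, was the highest of its group, and every knockout library lay between 36% and 44.9% of the wildtype mean. On the log2 scale the fall came to -1.31 (SE 0.0947, DESeq2, adjusted p = 3.92e-41), the smallest of the 5 falls.

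mt-Nd5 encodes the proton-pumping subunit at the far end of the membrane arm. Its normalised counts were 227400, 220800, 191200 and 225300 in the wildtype and 72690, 55140, 65190 and 69590 in the knockout. Wildtype replicate 3 and knockout replicate 2 were the lowest of their groups, and the groups did not overlap. Its change was -1.72 on the log2 scale (SE 0.115, DESeq2, adjusted p = 1.74e-48).

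The mt-Nd4l_4 record covers mt-Nd4l, a small subunit of the membrane arm, and mt-Nd4, a further proton-pumping subunit. Its normalised counts were 258300, 261000, 244700 and 264100 in the wildtype and 10820, 9225, 8626 and 10260 in the knockout. All 4 knockout libraries lay between 3.36% and 4.21% of the wildtype mean, a narrow range. This record changed by -4.72 on the log2 scale (SE 0.096, DESeq2), a fall of 26.4-fold, and its adjusted p was below the smallest value the software writes. With the copies added the counts were 248300 to 268300 in the wildtype and 9734 to 11750 in the knockout, and the log2 change was -4.60 (SE 0.0904).

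mt-Nd3 encodes a small subunit near the junction of the membrane arm with the arm that binds NADH. Its normalised counts as deposited were 1175, 919.7, 1015 and 1065 in the wildtype and 60.8, 48.77, 59.61 and 28.16 in the knockout. Knockout replicate 4 was the lowest by a wide margin. The deposited record changed by -4.42 (log2) (SE 0.202, DESeq2, adjusted p = 9.15e-103). With the copies added the counts were 63740, 61590, 63220 and 61350 in the wildtype and 4213, 5382, 6140 and 5199 in the knockout. The low library was then knockout replicate 1, and knockout replicate 4 stood within its group. This sum changed by -3.58 (log2, SE 0.12, DESeq2, adjusted p = 1.66e-191), which leaves 8.38% of the wildtype level in place of 4.68%.

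mt-Nd6 encodes a membrane subunit and is the only protein gene whose mRNA comes from the other strand. Its normalised counts were 3696, 3450, 3102 and 3973 in the wildtype and 2852, 2691, 3892 and 3125 in the knockout. The groups overlapped, because knockout replicate 3 lay above 3 of the wildtype libraries and wildtype replicate 3 lay below 2 of the knockout libraries. Its estimated log2 change was -0.18 (SE 0.141, DESeq2, adjusted p = 0.353), and its 95% interval ran from -0.46 to 0.10. Its direction turned with the scaling, to -0.48 when libraries were scaled by total counts (adjusted p = 0.000461) and to 0.24 when mitochondrial rRNA was left out of the total (adjusted p = 0.107). These scalings moved the median of the expressed records, those averaging 10 or more counts over the libraries, by -0.296 and 0.425. Relative to the median of these expressed records, mt-Nd6 stood at -0.20 under both. Without knockout replicate 3 the log2 fold change was -0.30 (adjusted p = 0.0162).

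**Figure D1:**
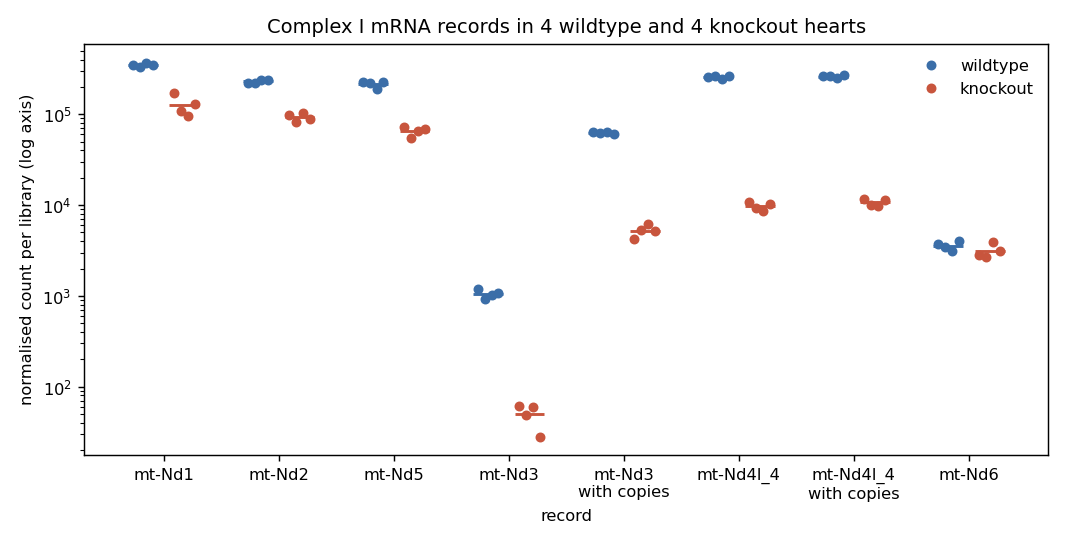
Normalised count of each complex I mRNA record in each library, on a log axis, with 1 point per library in replicate order and a line at the group mean. The knockout points lie below all wildtype points for every record except mt-Nd6, and adding the nuclear copies lifts mt-Nd3 from a mean of 1044 to 62470 in the wildtype.

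The copies held very different shares of the reads. Gm28438 took 98.33% ± 0.153 (SD, n = 4) of the summed count of mt-Nd3 and its copy in wildtype libraries and 99.04% ± 0.373 (SD, n = 4) in knockout libraries. The deposited mt-Nd3 record alone thus rests on a small part of the reads that match this sequence. Gm28438 itself changed by -3.57 (log2, SE 0.12, DESeq2, adjusted p = 1.47e-189). Gm10222 had 1.334% ± 0.202 (SD, n = 4) of the mt-Nd4l_4 sum in wildtype libraries and 9.536% ± 1.49 (SD, n = 4) in knockout libraries. It changed by -1.76 (log2, SE 0.136, DESeq2, adjusted p = 3.64e-36), a smaller fall than that of the mt-Nd4l_4 record. Gm28439 had 0 counts in all 8 libraries although its sequence matches mt-Nd4 without a mismatch. How the reads were divided between these records was not tested.

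The records can also be read in the order of the plus-strand precursor, which begins with the 12S and 16S rRNAs mt-Rnr1 and mt-Rnr2. Both rRNAs were higher in the knockout, with log2 fold changes of 0.92 and 0.86. mt-Nd1 and mt-Nd2 follow at -1.48 and -1.31. The next records encode cytochrome c oxidase and ATP synthase subunits, and mt-Co1 at -4.66 and mt-Atp8_6 at -4.27 lay close to mt-Nd4l_4 at -4.72. mt-Nd5 at -1.72 and mt-Cytb, which encodes a subunit of complex III, at -2.90 end the strand. mt-Co2 and mt-Co3, at -3.31 and -5.84, had 99.92% and 99.89% of their sums in nuclear copies, so their records as deposited are uncertain.

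**Figure D2:**
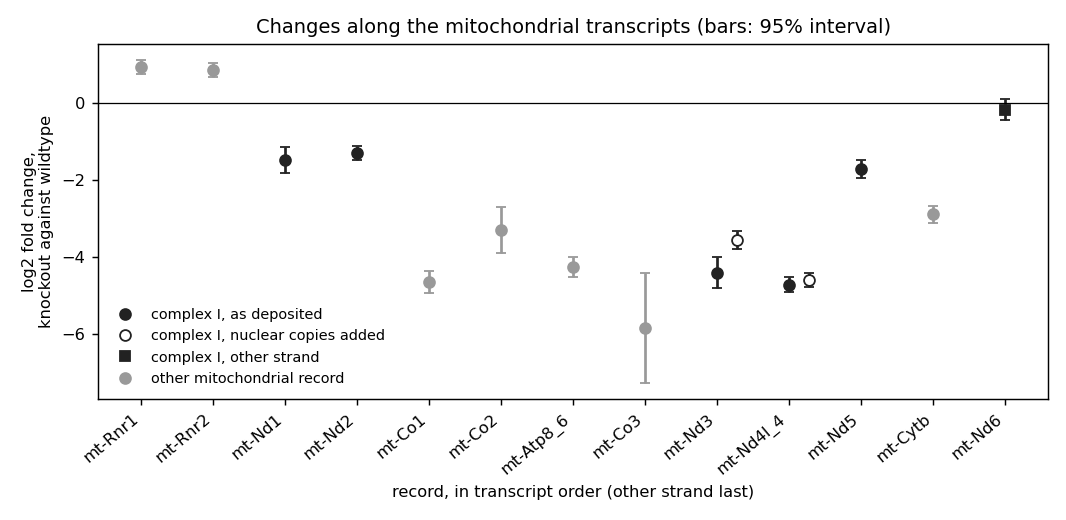
Log2 fold change of the 13 mitochondrial rRNA and mRNA records, knockout against wildtype, with 95% intervals, in transcript order with mt-Nd6 of the other strand last. Black marks are complex I records, open marks the same with nuclear copies added, and grey marks other records. mt-Nd1, mt-Nd2 and mt-Nd5 lie between -1.31 and -1.72, and mt-Nd3 and mt-Nd4l_4 lie between -3.58 and -4.72.

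Ratios of 1 mRNA to another within a library do not depend on how libraries are scaled, and they were compared by a two-sided exact permutation test over all 70 assignments of the 8 libraries. The smallest p this design allows is 0.0286. Of the 15 ratios among the 6 records, 12 differed between the genotypes (exact permutation test, adjusted p = 0.0333 over 21 ratios). With the copies added 13 of 15 differed (exact permutation test, adjusted p = 0.0316).

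mt-Nd1, mt-Nd2 and mt-Nd5 are the records that kept between 30.4% and 40.4% of their level. Ratios among them had smaller mean differences than any ratio of these to mt-Nd3, mt-Nd4l_4 or mt-Nd6. The count of mt-Nd1 was 1.445 to 1.564 times that of mt-Nd2 in the wildtype and 0.9115 to 1.764 times in the knockout, with knockout replicate 3 the only library below 1. The mean log2 difference was -0.20 with differences between single libraries of the groups from -0.78 to 0.29 (exact permutation test, p = 0.4). For mt-Nd1 to mt-Nd5 the mean log2 difference was 0.21 and single differences ran from -0.42 to 0.64 (exact permutation test, p = 0.343). These ranges are wide and do not show that the records changed alike. The ratio of mt-Nd2 to mt-Nd5 was higher in the knockout by 0.41 on the log2 scale, with single differences from 0.03 to 0.70 (exact permutation test, adjusted p = 0.0333).

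The ratio of mt-Nd2 to mt-Nd4l_4 was below 1 in the wildtype and above 1 in the knockout. Its values were 0.8655, 0.8532, 0.9794 and 0.9047 in the wildtype and 8.979, 9.007, 12.04 and 8.707 in the knockout. In the wildtype mt-Nd4l_4 had slightly more counts than mt-Nd2 in all 4 libraries, and in the knockout it had far fewer in all 4. The mean log2 difference was 3.42 (exact permutation test, adjusted p = 0.0333), with single differences from 3.15 to 3.82. Counts are not per length, so this ratio compares change and not level.

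The ratio of mt-Nd3 to mt-Nd4l_4 depended on the copies. As deposited the mean log2 difference was 0.26 with single differences from -0.73 to 0.97 (exact permutation test, p = 0.429). With the copies added mt-Nd3 had 23.03% to 25.6% of the count of mt-Nd4l_4 in the wildtype and 35.55%, 52.9%, 63.41% and 45.71% in knockout replicates 1 to 4. The groups no longer overlapped, and the mean log2 difference was 1.01 (exact permutation test, adjusted p = 0.0316).

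mt-Nd6 rose against each of the other 5. The ratio of mt-Nd4l_4 to mt-Nd6 fell by 4.54 on the log2 scale, and that of mt-Nd2 to mt-Nd6, the smallest change of this kind, fell by 1.12 (exact permutation test, adjusted p = 0.0333 for each of the 5). Against mt-Rnr2 all 6 mRNAs fell, mt-Nd6 included, whose mean log2 ratio was lower by 1.05 with single differences from -1.33 to -0.69 (exact permutation test, adjusted p = 0.0333). mt-Rnr2 itself was higher in the knockout after normalisation, as given above.

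**Figure D3:**
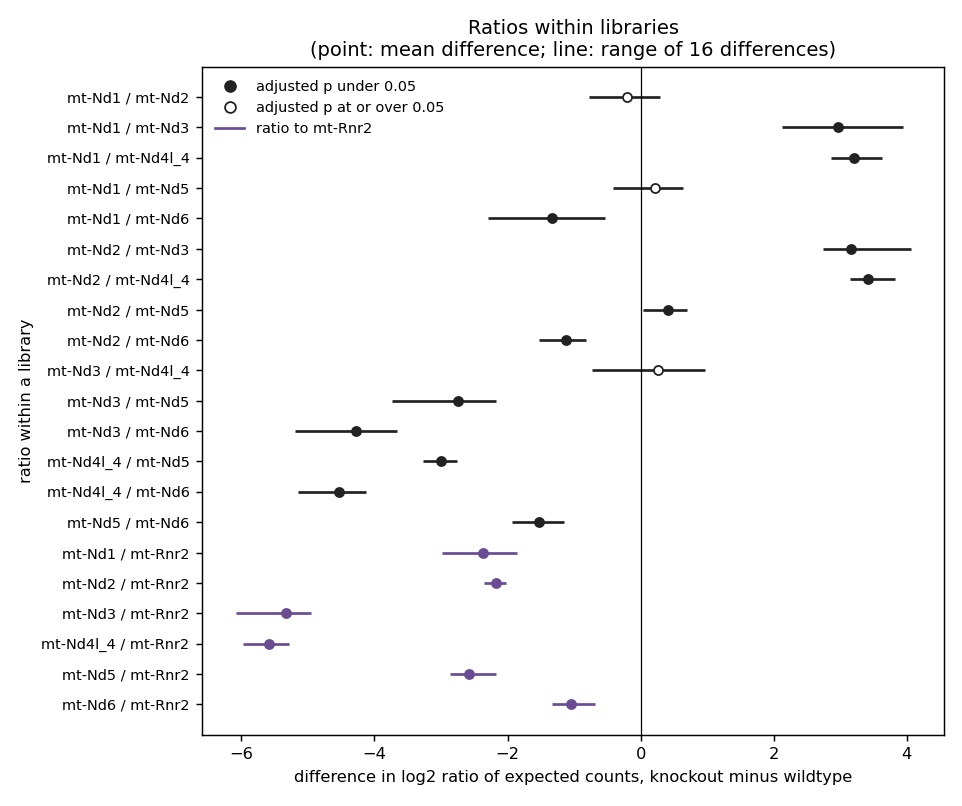
Difference between the genotypes in the log2 ratio of expected counts within a library, as deposited, for the 15 ratios among complex I mRNAs and the 6 ratios to mt-Rnr2. Points are mean differences, lines the range of all 16 differences between a knockout and a wildtype library, and open points did not pass an adjusted p of 0.05. The lines of mt-Nd1 to mt-Nd2, mt-Nd1 to mt-Nd5 and mt-Nd3 to mt-Nd4l_4 cross 0.

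Levels of different mRNAs were compared per length, as TPM. With copies added, the TPM of each copy was taken over its own length and added to that of the record. Gm28438 has 345 bases beside 399 in the mt-Nd3 record, and Gm10222 has 294 beside 1719 in the mt-Nd4l_4 record. The sums are thus higher than on the record's length, on which the places of mt-Nd3 were not computed. In the wildtype, with copies added, the order was mt-Nd1 at 11500 ± 569 (SD, n = 4), mt-Nd3 at 9531 ± 349, mt-Nd2 at 6931 ± 208, mt-Nd4l_4 at 5300 ± 128, mt-Nd5 at 2608 ± 205 and mt-Nd6 at 106 ± 10. On these sums no neighbors in this order overlapped. mt-Nd6 stood 24.6 times below mt-Nd5, its nearest neighbor. In the knockout the order was mt-Nd1 at 3771 ± 1010 (SD, n = 4), mt-Nd2 at 2544 ± 135, mt-Nd3 at 728.9 ± 110, mt-Nd5 at 722 ± 93.5, mt-Nd4l_4 at 355.3 ± 41.7 and mt-Nd6 at 85.02 ± 11.7. The ranges of mt-Nd1 and mt-Nd2 overlapped, as did those of mt-Nd3 and mt-Nd5, and the other neighbors did not. mt-Nd4l_4 passed from above mt-Nd5 in all 4 wildtype libraries to below it in all 4 knockout libraries, with or without copies. As deposited mt-Nd4l_4 had a TPM of 4567 ± 145 in wildtype libraries and 158.1 ± 21.9 in knockout libraries (SD, n = 4 each). The short copy Gm10222 added a mean TPM of 732.3 in wildtype and 197.2 in knockout libraries, although it held 1.334% and 9.536% of the summed counts there. The fall of mt-Nd4l_4 in TPM was therefore smaller with the copies than without them. In normalised counts the fall was 26.4-fold as deposited and 24.2-fold with the copies. As deposited mt-Nd3 had a TPM of 123.3 ± 13.2 in the wildtype and 5.217 ± 1.36 in the knockout, below mt-Nd5 in the wildtype and below mt-Nd6, at the end of the order, in the knockout.

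Of all counts, the 6 records together held 2.845% ± 0.0222 (SD, n = 4) in wildtype libraries and 0.6503% ± 0.0948 (SD, n = 4) in knockout libraries. Among mitochondrial mRNA counts alone their share was higher in the knockout, at 66.72% ± 1.53 against 28.06% ± 0.438, and with the copies of all these mRNAs added it was 57.07% ± 1.83 against 21.6% ± 0.267. Within the complex I counts, copies added, mt-Nd4l_4 went from 23.18% ± 0.688 in the wildtype to 3.56% ± 0.259 in the knockout and mt-Nd3 from 5.567% ± 0.121 to 1.765% ± 0.451. The share of mt-Nd2 was 20.57% ± 0.75 and 31.04% ± 4.16. mt-Nd6 held 0.3162% ± 0.0293 and 1.05% ± 0.24. The share of mt-Nd1 ranged from 30.17% to 33.21% in the wildtype and from 33.39% to 47.6% in the knockout, with knockout replicate 3 the lowest of its group, and that of mt-Nd5 ranged from 17.12% to 20.15% and from 20.2% to 22.98%. With copies added the groups did not overlap for any of the 6, and for mt-Nd1 and mt-Nd5 they nearly met. On the records as deposited those of mt-Nd1 (32.02% to 35.3% and 34.27% to 48.28%) and mt-Nd5 (18.19% to 21.38% and 20.48% to 23.58%) overlapped.

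**Figure D4:**
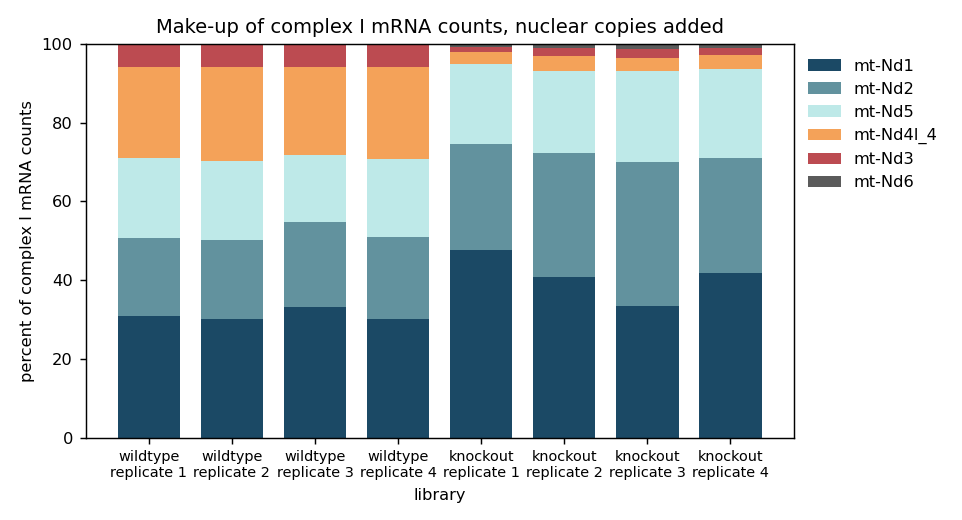
Percent of the complex I mRNA counts held by each record in each library, nuclear copies added, as stacked bars that sum to 100. The share of mt-Nd4l_4 falls from 22.24 to 23.86% in the wildtype libraries to 3.264 to 3.837% in the knockout libraries, and mt-Nd1, mt-Nd2 and mt-Nd5 fill most of each knockout bar.

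The rest of complex I is encoded in the nucleus, so its mRNAs were set beside the mitochondrial ones. Of 36 nuclear subunit genes tested, 25 were lower and 0 were higher in the knockout, against 15.5% lower among all records. Their median log2 fold change was -0.38 and the median of all records tested was 0.01. The largest falls were in Ndufv3, a subunit of the NADH-binding module, at -0.81 (DESeq2, adjusted p = 6.37e-15), Ndufs1, the large iron-sulfur subunit of that module, at -0.72 (adjusted p = 1.25e-13), and Ndufs6, an accessory subunit, at -0.64 (adjusted p = 5.77e-07). Ndufs1 had normalised counts of 10600 to 11530 in the wildtype and 6073 to 7245 in the knockout. No nuclear subunit fell as far as mt-Nd2, and the widest nuclear values were -0.81 and 0.24. The number called depended on the scaling. With mitochondrial rRNA left out of total counts, 2 were lower and 7 higher. Under that scaling 1111 of all 20459 records tested were lower and 7950 were higher. The median relative to the expressed records was -0.39 in the reported fit and -0.40 under that scaling.

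Assembly factors build complex I and do not stay in it. Of 18 tested, 8 were lower and 0 were higher, beside 15.5% lower and 18.2% higher among all records, with a median log2 fold change of -0.23. The 8 became 4 without wildtype replicate 2, wildtype replicate 4 or knockout replicate 4, and 5 without wildtype replicate 1, wildtype replicate 3 or knockout replicate 2. The difference between this list and the subunits was not tested. Under total counts without mitochondrial rRNA 1 was lower and 5 were higher, beside 1111 lower and 7950 higher of all 20459 records tested. Relative to the expressed records the median was -0.25 in both fits. The largest falls were Tmem126b, which acts in assembly of the membrane arm, at -0.77 (DESeq2, adjusted p = 2.72e-07), Ndufaf4 at -0.70 (adjusted p = 3.83e-06) and Tmem186 at -0.60 (adjusted p = 5.43e-05). The summed count of the mitochondrial records, copies added, was 8.1 to 8.35 times that of the nuclear subunits in the wildtype and 3.3, 2.66, 2.32 and 3.38 times in knockout replicates 1 to 4.

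**Figure D5:**
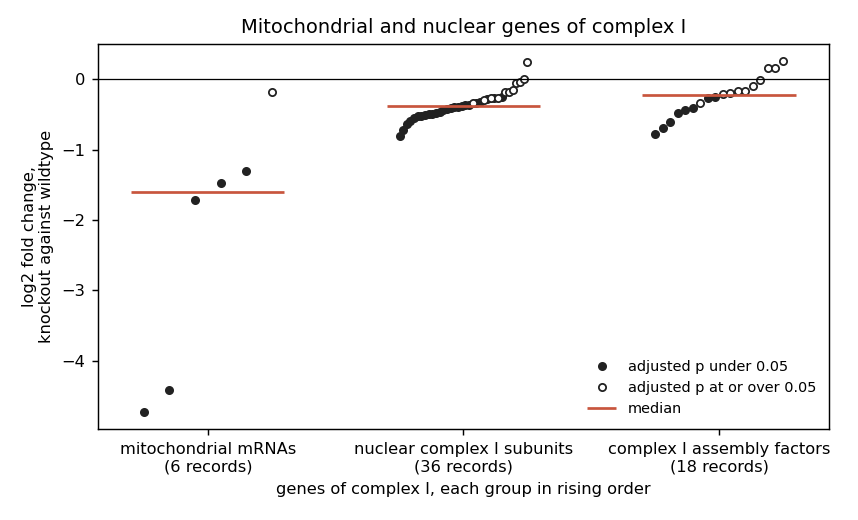
Log2 fold change, knockout against wildtype, of the 6 mitochondrial records as deposited, 36 nuclear subunits and 18 assembly factors of complex I, each in rising order with a line at the median. Filled points passed an adjusted p of 0.05. The 5 mitochondrial records that fell lie at -1.31 or lower, below every nuclear gene shown, under the median-of-ratios scaling.

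Markers of some heart cell types differed between the genotypes beside these results. Among all records 15.5% were lower and 18.2% higher. Of 6 cardiomyocyte markers, 5 were lower in the knockout, and their summed normalised count was 900200 to 1006000 in the wildtype and 416500 to 543000 in the knockout. Of 4 atrial markers 2 were lower, and of 3 smooth muscle markers 1 was lower. The sum of the atrial markers was 9980 to 12040 in the wildtype and 1268 to 6012 in the knockout, and that of the smooth muscle markers was 3216 to 4033 and 975.5 to 2541. Knockout replicate 3 gave the low end of both, with the other knockout libraries at 3233 to 6012 and 1896 to 2541, and it had the highest erythroid sum, 37840. Among the knockout libraries it was also lowest for mt-Nd1 and highest for mt-Nd2 and mt-Nd6, and without it mt-Nd6 passed the threshold. Of 4 macrophage markers 3 were higher, with sums that overlapped at 1539 to 1939 and 1659 to 4001. Of 4 fibroblast markers 1 was higher, and of 3 skeletal muscle markers tested 1 was higher. The sums of these lists and of the endothelial, erythroid and adipocyte lists overlapped between the groups. Of 4 endothelial, 3 erythroid and 3 adipocyte markers, 0 passed the threshold. The part of these differences in the values of complex I mRNAs was not tested.

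For each member the records with the closest profile over the 8 libraries were found as the smallest root mean square difference in log2 values relative to the wildtype mean, among 10299 records with a wildtype mean of at least 100. The closest to mt-Nd4l_4 were mt-Co1 at 0.119, mt-Atp8_6 at 0.369 and the nuclear gene Cilp2 at 0.465. The closest to mt-Nd3 as deposited were mt-Co1 at 0.386, mt-Atp8_6 at 0.426 and Sbk2 at 0.463. With copies added they were Gpr22 at 0.336, Kcnv2 at 0.392 and Sbk3 at 0.401. For the other members nuclear genes came closest. They included Ldhd, Ackr3 and As3mt for mt-Nd1 (0.0861 to 0.116), Ogdhl and Hfe2 for mt-Nd2 (0.109 and 0.112), Kcnj2, Gm44386 and Enpp2 for mt-Nd5 (0.111 to 0.143), and Zfp36l1, Ei24 and Entpd5 for mt-Nd6 (0.0638 to 0.0689). All points share the same 8 libraries and size factors, so this likeness is a description.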

How the data were processed

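Total RNA from 8 hearts was depleted of cytoplasmic rRNA and sequenced with paired ends after priming with random hexamers. The deposited expected counts come from RSEM 1.2.31 with bowtie2, run by the authors with strand on GENCODE transcripts to which mitochondrial rRNAs and mRNAs with added adenines had been joined (mm10). The deposited TPM values are also from RSEM. Gene and effective lengths, in bases, are other deposited values. A table of the authors' own fold changes and p-values was not used, and 8 columns of normalised values whose names match no sample label were not used.

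Expected counts were rounded and fitted with DESeq2 1.42.0 in R 4.3.3 with 1 term for genotype across the 8 libraries. Size factors were medians of ratios, and effective lengths entered as an offset, with 1 in place of any length of 0. No shrinkage was applied. Benjamini-Hochberg adjustment ran over the 19959 records left by the software's own filters, at a threshold of 0.05. On simulated data with known changes the share of false calls was somewhat above the nominal rate, more so with DESeq2 than with edgeR. The simulation took its spread from the wildtype libraries alone and changed few records, so it does not give the error rate of these fits. A single call close to the threshold is to be read as less certain than its adjusted p. Copies were found by blastn 2.17.0 (at least 95% identity over 200 bases), and symbols from GENCODE M21 matched 50339 of 50563 identifiers. One name of each complex I list, Ndufb1-ps and Coa1, had no match. A pseudocount of 1 was added before logarithms for profile likeness.

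Members, lists and tests were chosen with earlier results of these data known. Genes named were the members, their copies, Lrpprc, Slirp, other mitochondrial records, the 3 largest falls and rises past the threshold in each complex I list, and 3 closest profiles per member, of which 1 is not reported here. The alternatives tried were the quasi-likelihood test of edgeR 4.0.16 with TMM, a fit without lengths, a filter of 10 counts in at least 4 libraries, size factors of nuclear records, total counts with mitochondrial rRNA kept or left out, a replicate block, each library left out, TPM, and copies added. Libraries of a group differed by more than sampling noise (chi-square per degree of freedom 4.65 to 52.9) and each counted as 1 replicate.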

Additional observations from a re-analysis of the deposited data

Results flagged for a closer look

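In 6 of 74 groups of 4 libraries, 1 library stood further from the others than Dixon's 95% critical value allows. Chance flags about 1 in 20 groups, which is 3.7 of 74. The log2 ratio of mt-Nd1 to mt-Nd5 was 0.96 in wildtype replicate 3 and 0.60 to 0.62 in the other wildtype libraries. The log2 ratio of mt-Nd6 to mt-Rnr2 was -12.21 in the same library and -12.02 to -11.98 in the others. In knockout replicate 4 the log2 ratio of mt-Nd2 to mt-Nd3 was 11.64, against 10.65 to 10.76, and that of mt-Nd3 to mt-Nd5 was -11.28, against -10.24 to -10.09. Both rest on the low count of the mt-Nd3 record as deposited. In knockout replicate 3 the log2 ratio of mt-Nd2 to mt-Nd4l_4 was 3.59, against 3.12 to 3.17. The normalised count of Lrpprc was 504.3 in knockout replicate 2 and 597.4 to 605.4 in the other knockout libraries.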

How the results depend on the processing

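The falls of mt-Nd1, mt-Nd2, mt-Nd3, mt-Nd4l_4 and mt-Nd5 kept their direction and passed the threshold under every alternative run, with log2 fold changes of -1.77 to -1.05, -1.61 to -0.89, -4.72 to -4.00, -5.02 to -4.29 and -2.02 to -1.29 for the records as deposited. With copies added the ranges were -3.88 to -3.16 for mt-Nd3 and -4.89 to -4.17 for mt-Nd4l_4. The change of mt-Nd6 was -0.48 under total counts (adjusted p = 0.000461) and 0.24 under total counts without mitochondrial rRNA (adjusted p = 0.107). Leaving out each library gave -0.30 to -0.11 for mt-Nd6, 5 to 6 members lower, 18 to 32 nuclear subunits lower and 0 to 1 higher, and 4 to 9 assembly factors lower and 0 to 1 higher. mt-Nd6 became the sixth member lower without knockout replicate 3. Total counts without mitochondrial rRNA gave 2 nuclear subunits lower and 7 higher, and 1 assembly factor lower and 5 higher. Of all 20459 records tested, 1111 were lower and 7950 higher under that scaling. Total counts gave 14 assembly factors lower, beside 5912 lower of all 19961 records tested. The wildtype share of all counts was 2.584% in TPM and 3.019% with copies added. Adding the TPM of the copies, on their own lengths, moved mt-Nd3 to place 2 in the wildtype and 3 in the knockout order. It moved mt-Nd4l_4 to places 4 and 5. Calls near the threshold in the lists thus depend on single libraries. The cause was not tested, except that the scalings shift all records together.

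Nothing in the labels says that replicate numbers pair animals, and deviations of same-numbered libraries correlated at -0.0735 to 0.0723, with 2 of 8 libraries correlating best with their own number. With a replicate block mt-Nd6 was -0.19, 5 members were lower, and the number of assembly factors lower was 4. In a paired sign-flip test of the ratios the smallest p is 0.125, so it could not pass the threshold.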
